A study of Gallus gallus with 45 samples.

Results

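The 7 genes described here are transcription factors and a secreted antagonist of the early endoderm and of the tissues that share the GATA factors with it: SOX17, FOXA2, HHEX and CER1, and the zinc finger factors GATA4, GATA5 and GATA6. They were taken from the tables by their symbols, with no threshold on a level, and all 7 of the 7 symbols were found among the 18525 genes that passed the filter on low counts. The question asked of them was when, stage by stage, each was lost from the dissected tissue, and whether single libraries that were high in 1 of them were high in the others.

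The samples were 45 bulk RNA-seq libraries of wild-type chick embryos, without treatment, dissected at the midbrain level over 12 stages. Stages are given as HH5 and HH6 (Hamburger-Hamilton stages) and then as the number of somites (1ss to 10ss), with 1ss named HH7 in the labels, and each stage has 4 libraries except 6ss, 8ss and 10ss with 3. Each library pooled tissue from several embryos, so that 1 library averages over embryos and over all cells in the piece. The piece changed with the stage: patches beside the primitive streak at HH5 and HH6, the border of the neural plate or the tips of the neural folds at the next stages, and beyond 7ss the dorsal neural tube with crest cells out to the migratory front. Stage and dissected piece can therefore not be told apart between HH6 and 1ss or between 7ss and 8ss. For part of the tests the stages were pooled as HH5, HH6, HH7 (1ss to 3ss, 12 libraries), HH8 (4ss to 6ss, 11 libraries), HH9 (7ss to 9ss, 11 libraries) and HH10 (10ss, 3 libraries).

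The definitive endoderm forms from cells that pass through the primitive streak at gastrulation and displace the hypoblast below the epiblast. SOX17 and FOXA2 are core factors of the endoderm programme. GATA4, GATA5 and GATA6 act in the endoderm and in the lateral and cardiac mesoderm, so that their RNA is no marker of endoderm alone. HHEX marks the anterior endoderm and is also used by blood and vessel progenitors, and CER1 encodes a secreted antagonist of Nodal, BMP and Wnt signals made by the hypoblast and anterior endoderm.

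The libraries held between 15.4 M and 30.5 M counted reads (median 22.9 M), and 3 reads, taken here as the floor of detection, correspond to 0.104 to 0.189 CPM (counts per 1 M reads of the library). CPM values are scaled by the trimmed mean of M-values (TMM) and not by gene length, so levels are compared between samples and not between genes. A call needed an adjusted p (Benjamini-Hochberg over all 18525 genes) under 0.05 and an absolute log2 fold change above 0.75 in edgeR's quasi-likelihood test. The library HH6 replicate 1 stood apart: it was above its stage mean in all 7 genes, by a median of 1.29 on the log2 CPM scale. Results that rest on it are given with and without it, or marked where they are not. In HH5 replicate 4, CER1 alone stood apart. In bulk tissue, fewer cells of a type and less RNA per cell cannot be told apart.

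All 7 genes were lower at the last stage than at the first, and none of them was called higher in any of the comparisons made with edgeR. At HH10 against HH5, 7 of 7 were called lower, against 9.8% of all genes, and the median log2 fold change of the 7, that of FOXA2, was -5.11 against a median of -0.07 over all genes. The test for any change over the 12 stages called 7 of 7 as well, where it called 43.7% of all genes, with adjusted p from 2.7e-17 for GATA5 to 2.7e-05 for CER1. The 7 genes were chosen with earlier results of these data known. The shares of all genes given beside their counts are therefore a description and no test. The stage of the first call is given for each gene, and differences between genes were not tested. GATA6 and HHEX were called lower than HH5 from HH6 onward, SOX17, GATA4, GATA5 and FOXA2 from 1ss onward and CER1 from 5ss onward, each at every later stage too. At HH6 the log2 fold change of SOX17, not called, was -1.72 (adjusted p = 0.067) beside -1.76 (adjusted p = 0.031) for GATA6. Without HH6 replicate 1, SOX17, GATA4, GATA5 and FOXA2 were called from HH6, as FOXA2 was without 8ss replicate 1, and without HH5 replicate 2 or 4 or HH6 replicate 2, 3 or 4 GATA6 was called from 1ss.

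**Figure D1:**
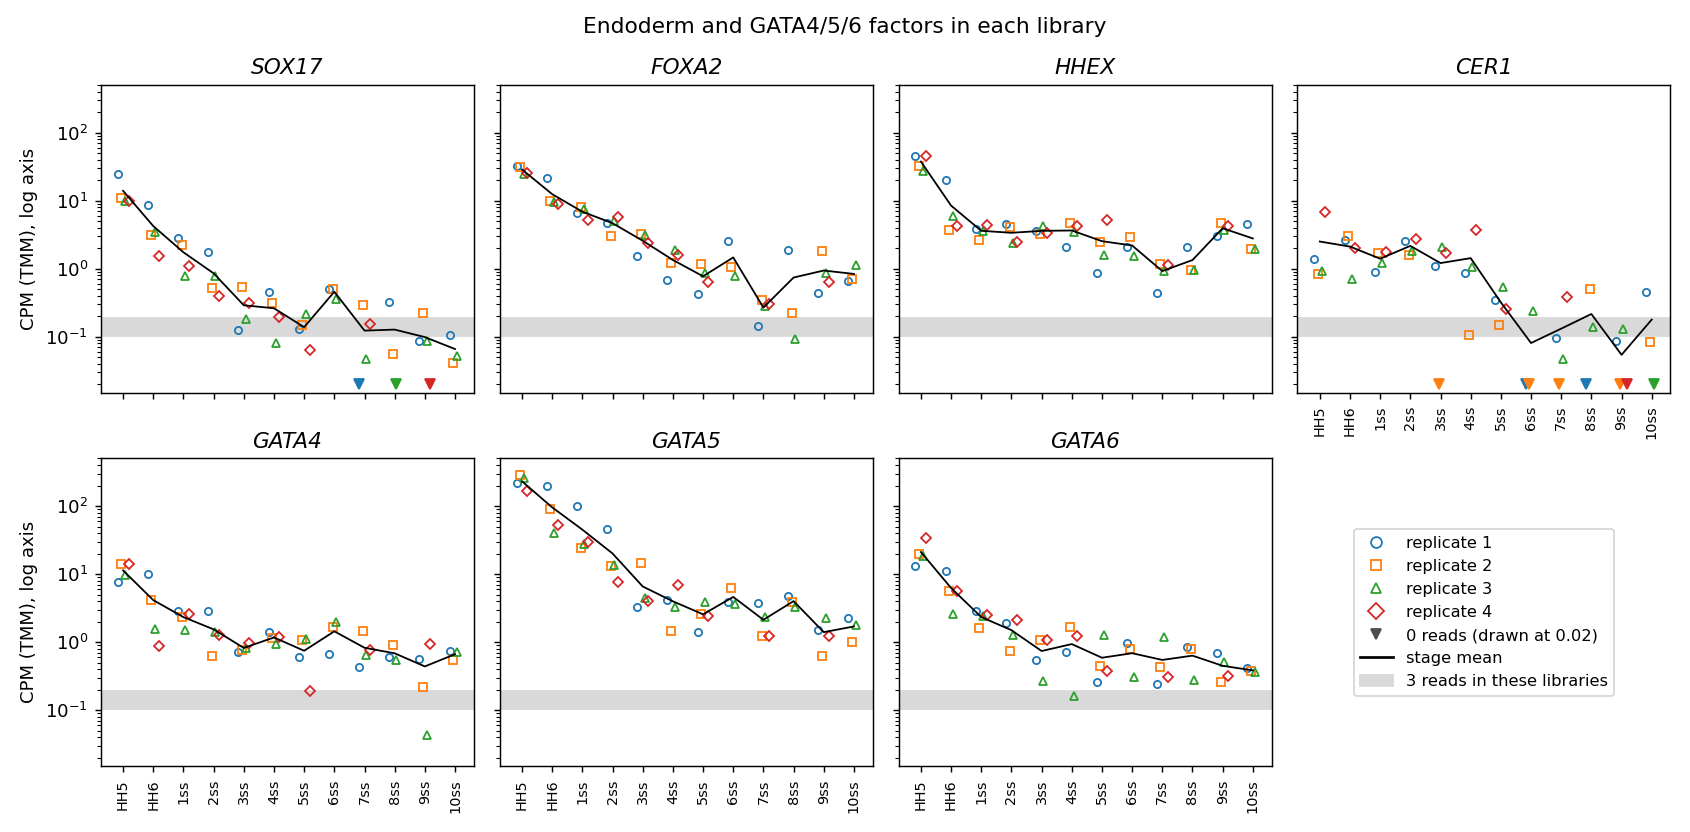
CPM of each gene (log axis) in each of the 45 libraries by stage, with symbols for replicates, a line through the stage means, triangles at 0.02 for libraries with 0 reads and a grey band for the level of 3 reads (0.104 to 0.189 CPM). GATA5 stays above the band in every library, SOX17 and CER1 reach the band at late stages, and GATA4, GATA6 and FOXA2 reach it in single late libraries. HHEX dips at 7ss, and the circle of replicate 1 at HH6 lies above the other HH6 libraries in all genes but CER1.

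SOX17, the HMG-box factor of endoderm, was at 24.8, 10.9, 9.94 and 9.95 CPM in the HH5 libraries. Its mean was 13.9 ± 7.30 CPM (SD, n = 4) at HH5, 4.22 ± 3.10 at HH6 (n = 4) and 1.74 ± 0.972 at 1ss (n = 4). From 3ss onward every stage mean was under 0.5 CPM, and over the whole series 30 of 45 libraries held more than 3 reads of it and 3 held none. At 10ss the libraries had 3, 1 and 1 reads, against 251 to 651 at HH5. This is a ratio of 202-fold lower, with an exact interval of 86.2 to 622 that covers counting error only. A small excess at 6ss (0.364 to 0.509 CPM, above all libraries of 5ss and of 7ss) was not called against either neighbour, with adjusted p of 0.40 against 5ss and 0.49 for 7ss against 6ss.

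FOXA2, a forkhead factor of the endoderm and of the axial midline, had a lower mean at each stage from HH5 to 5ss than at the one before. The HH5 libraries held 24.9 to 32.7 CPM (mean 28.7 ± 4.07, SD, n = 4), and the means were 12.4 ± 6.00 at HH6, 6.87 ± 1.27 at 1ss, 4.66 ± 1.19 at 2ss, 2.58 ± 0.771 at 3ss and 1.34 ± 0.523 at 4ss (n = 4 each). Its libraries did not overlap between HH5 and HH6, between HH6 and 1ss or between 6ss and 7ss. The last of these was 0.789 to 2.54 CPM at 6ss against 0.145 to 0.341 at 7ss, a log2 fold change of -2.42 (SE 0.583) with an adjusted p of 0.18. After 7ss the gene was found at 0.0917 to 1.91 CPM, with 8ss replicate 1 at 1.91 CPM and the other 8ss libraries at 0.227 and 0.0917.

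HHEX, a homeobox factor of anterior endoderm and of vessel progenitors, was at 45.7, 32.1, 27.3 and 44.7 CPM at HH5 and at 19.8, 3.64, 5.99 and 4.30 CPM at HH6, so that all HH6 libraries were below all HH5 libraries. From 1ss to 4ss its stage means lay between 3.37 and 3.64 CPM. They then went down to 0.921 ± 0.342 at 7ss (n = 4) and were 3.93 ± 0.755 at 9ss (n = 4). All 9ss libraries (2.98 to 4.72 CPM) were above all 8ss libraries (0.963 to 2.09 CPM), but the difference was not called, with a log2 fold change of 1.54 (SE 0.488) and an adjusted p of 0.12; DESeq2's Wald test gave an adjusted p of 0.035.

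The summed level of 10 measured blood and vessel genes is given beside the late HHEX values. It was 13.2 to 25 CPM at 7ss, 32.2 to 39.4 CPM at 9ss and 36.9 to 74.4 CPM at 10ss. At 7ss replicates 1 to 4 had HHEX at 0.434, 1.17, 0.931 and 1.15 CPM and sums of 23.4, 25, 22.4 and 13.2 CPM. At 9ss they had HHEX at 2.98, 4.72, 3.72 and 4.29 CPM and sums of 33.7, 32.2, 32.7 and 39.4 CPM, so that the library with the highest HHEX had the lowest sum. In 8ss replicate 1 HHEX was 2.09 CPM and the sum 38.9 CPM, while the other 8ss libraries had HHEX at 0.964 and 0.963 CPM and sums of 17.3 and 17.9 CPM. In 10ss replicate 1 HHEX was 4.46 CPM and the sum 74.4 CPM, against 1.97 and 1.92 CPM of HHEX and sums of 42.1 and 36.9 CPM in the other libraries, both with less HHEX than any 9ss library. CDH5, the cadherin of vessel walls, was at 3.63 CPM in 8ss replicate 1 and at 1.25 and 1.1 CPM in the others. Of the 10 genes 2 were called higher from HH8 to HH9 (3.5% of all genes) and 2 from HH9 to HH10 (0.194% of all genes). At HH5, where HHEX was at 27.3 to 45.7 CPM, the sum was 29.3 to 39.5 CPM. The part of these cells in the late HHEX level was not tested.

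CER1 was the last of the 7 to be called lower. At HH5 it was at 1.37, 0.828 and 0.925 CPM in replicates 1 to 3 and at 6.89 CPM in replicate 4. The stage means from HH6 to 4ss, 1.21 to 2.16 CPM, lay within that range, with 4ss spread from 0.106 to 3.68 CPM and 1 library of 3ss at 0 reads. At 5ss all libraries were at 0.147 to 0.538 CPM, below all HH5 libraries, for a log2 fold change of -2.95 (SE 0.92, adjusted p = 0.018). It had 0 reads in 8 of 45 libraries, 1 at 3ss and the others from 6ss on, and more than 3 reads in 29. At 9ss the libraries had 2, 0, 3 and 0 reads, 50.3-fold lower than at HH5 with an exact counting interval of 21.3 to 156. Without HH5 replicate 4 the change from HH5 to HH10 was -2.40 in place of -3.67 with an adjusted p of 0.16 in place of 0.023, so that the late call of CER1 rests on that library, as it does on 10ss replicate 2 and on 10ss replicate 3. Its calls at 5ss and 8ss were lost without HH5 replicate 4 too, and also without 5ss replicate 2, or without 8ss replicate 1 or 3.

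GATA4, GATA5 and GATA6 are related zinc finger factors of endoderm and heart. GATA5 was at 215, 282, 259 and 168 CPM at HH5 (mean 231 ± 50.4, SD, n = 4), then means of 95.7 ± 71.9 at HH6, 45.03 ± 36.4 at 1ss, 20.1 ± 17.4 at 2ss and 6.59 ± 5.28 at 3ss (n = 4 each), and 1.71 ± 0.654 at 10ss (n = 3). It was above 3 reads in 45 of 45 libraries, with at least 17 reads in each. The large spread from HH6 to 3ss came from single libraries. These were HH6 replicate 1 at 199 CPM against 40.8 to 90.1, 1ss replicate 1 at 99.6 against 23.9 to 29.2, 2ss replicate 1 at 45.9 against 7.71 to 13.8 and 3ss replicate 2 at 14.5 against 3.28 to 4.51.

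GATA6 was at 13.1, 19.5, 18.3 and 33.6 CPM at HH5 and at 11.3, 5.57, 2.59 and 5.58 CPM at HH6, without overlap. Its mean was 2.34 ± 0.513 CPM at 1ss (n = 4) and under 1 CPM from 3ss onward, with 0.363 to 0.418 CPM in the 10ss libraries. GATA4 was at 7.63 to 14.1 CPM at HH5 and at 9.94, 4.21, 1.58 and 0.867 CPM at HH6, where replicate 1 overlapped the HH5 range. It then kept to means of 0.441 to 1.55 CPM from 2ss to 10ss, 3.89% to 13.6% of its HH5 mean. The fall of GATA4 over the series, a log2 fold change of -4.08 (SE 0.711) at HH10 against HH5, was smaller than the -7.07 (SE 0.964) of GATA5 and the -5.75 (SE 0.729) of GATA6. The differences between these genes were not tested.

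Genes that the tissue should not use gave the level of background. Among genes of late differentiated tissues, INS and CRYAA had means of 0.122 and 0.219 CPM over all libraries, GH and ALB 0.416 and 0.481, PRL 3.1 and POMC 10.4 CPM. At 10ss the means of the 7 genes described here were 0.066 CPM for SOX17, 0.179 for CER1, 0.386 for GATA6, 0.667 for GATA4, 0.838 for FOXA2, 1.71 for GATA5 and 2.78 for HHEX. GATA5, GATA6 and HHEX were above 3 reads in 45 of 45 libraries and GATA4 and FOXA2 in 43.

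**Figure D2:**
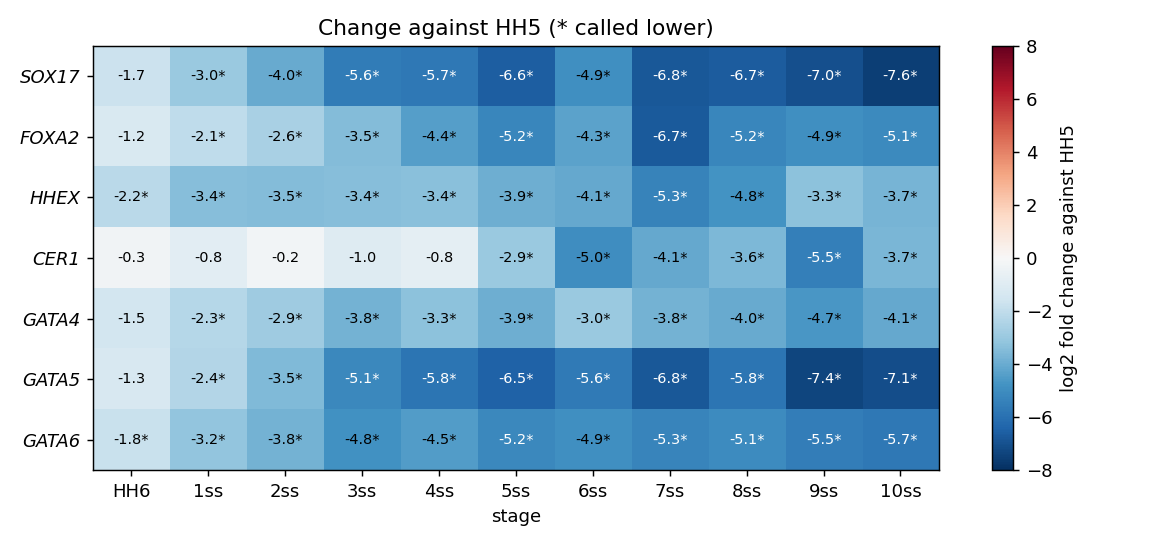
Fitted log2 fold change of each later stage against HH5 for the 7 genes, from the fit with 12 stages, with an asterisk where the gene was called lower. All cells are below 0; CER1 is uncalled up to 4ss, and the cells of SOX17 at 10ss and CER1 at 9ss rest on at most 3 reads a library.

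Counted against HH5 in the fit with 12 stages, 2 of 7 genes were called lower at HH6 (1.02% of all genes). The count was 6 of 7, all but CER1, at 1ss (2.69% of all genes), 2ss (4.09%), 3ss (6.14%) and 4ss (6.53%). It was 7 of 7 at 5ss (8.53%), 6ss (8.04%), 7ss (11.8%), 8ss (10.5%), 9ss (9.98%) and 10ss (10.2%). At 1ss the 6 called genes had log2 fold changes from -3.38 for HHEX to -2.06 for FOXA2.

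Between consecutive stages the calls lay at the first step. From HH5 to HH6, GATA6 fell with a log2 fold change of -1.76 (SE 0.476, adjusted p = 0.031) and HHEX with -2.15 (SE 0.416, adjusted p = 0.0021), 2 of 7 against the same 1.02% of all genes. All 7 estimates were below 0, with a median of -1.46 where all genes had 0.01. No gene of the 7 was called in either direction at the later steps, in which few genes of any kind were called lower. The shares of all genes were 0.0108% at 1ss against HH6, 0% at 2ss and 3ss against the stage before, 0.0054% at 4ss, 0.0108% at 5ss, 0.124% at 6ss, 0% at 7ss, 0.0162% at 8ss, 0.372% at 9ss and 0.0432% at 10ss. Without the adjustment, 5 of 7 were lower at 1ss against HH6 with p under 0.05, where 5.85% of all genes were. That count is not given without HH6 replicate 1. Over the fits that left out 1 library, the log2 fold changes of these 5 were -1.47 to -0.365 for HHEX and -1.83 to -0.433 for GATA5. They were -0.984 to -0.453 for FOXA2, -1.61 to -0.646 for SOX17 and -1.67 to -0.956 for GATA6. DESeq2's Wald test called FOXA2 lower at 7ss against 6ss (adjusted p = 0.015) and, as above, HHEX higher at 9ss.

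The first step depended on HH6 replicate 1. This library was close to HH5 in GATA5 (199 CPM, HH5 168 to 282) and GATA4 (9.94 CPM, HH5 7.63 to 14.1) and between the stages in SOX17 (8.70 CPM), GATA6 (11.3), FOXA2 (21.4) and HHEX (19.8). Without it, 6 of 7 genes were called lower at HH6 against HH5 in the fit with 12 stages, where 1.94% of all genes were. The log2 fold changes were then -3.01 for HHEX, -2.36 for GATA4, -2.35 for SOX17, -2.21 for GATA6, -1.92 for GATA5 and -1.61 for FOXA2, with adjusted p from 9.9e-06 to 0.029. CER1 remained uncalled at -0.39 (adjusted p = 0.88). The call of GATA6 with all libraries was lost without HH5 replicate 2 or 4 or without HH6 replicate 2, 3 or 4, with adjusted p up to 0.13.

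The markers of other tissues in HH6 replicate 1 were as follows. The summed level of 18 other endoderm and hypoblast genes was 787 CPM, against 425 to 456 in the other HH6 libraries and 736 to 1750 at HH5. That of 7 genes of other GATA factors and the non-neural ectoderm was 1080 CPM, against 481 to 609 and 856 to 1340. GATA3 accounted for most of it, at 917 CPM, against 397 to 496 and 672 to 1120. The 6 neural plate genes summed to 97.3 CPM, against 126 to 139 and 73.6 to 105. The sums of these 3 lists in this library lay within the HH5 range. Of the endoderm genes, APOA1 was at 336 CPM (other HH6 libraries 105 to 151, HH5 349 to 817). NKX2-1 was at 29.8 CPM (6.76 to 16.2 and 41.1 to 101) and EOMES at 2.53 CPM (2.81 to 6.18 and 5.47 to 18). These genes and HNF4A, GSC, LHX1, TTR, APOB, RBP4 and VTN lay below their HH5 ranges. LEFTY1 lay above its range and the other genes of that list within theirs. Of the neural plate genes, ZEB2 (44.9 CPM, other HH6 libraries 45.5 to 57.6, HH5 20.6 to 26.3) and SOX1 lay above their HH5 ranges and OTX2 below. The mesoderm list (469 CPM, others 331 to 478) and the heart list (475 CPM, others 337 to 464) lay above their HH5 ranges of 169 to 370 and 324 to 400 CPM, and so did the blood and vessel list (63 CPM, others 37.9 to 43.6, HH5 29.3 to 39.5). TNNC1 accounted for much of the heart sum, at 304 CPM in this library and 293 to 416 in the other HH6 libraries. TNNT2 was at 102 CPM against 7.88 to 38.7. NKX2-5, TBX5, MEF2C and ISL1 were also above all other HH6 libraries, and MYOCD, ACTC1 and MYH15 were not. The midline list (26 CPM, others 26.9 to 35.4) lay below its HH5 range of 42.3 to 71 CPM, and the neural crest list (245 CPM, others 106 to 223) within its HH5 range of 137 to 460 CPM. ETS1 and MSX1 accounted for much of the crest sum, at 98.8 and 104 CPM, and with SOX10 lay within their HH5 ranges. PAX7 (12.7 CPM, other HH6 libraries 9.89 to 23.8, HH5 2.27 to 3.01) and TFAP2B (15.3 CPM, 5.37 to 16.9 and 0.87 to 1.83) lay above theirs. SOX8 and SOX9 also lay above their HH5 ranges, and FOXD3 below. The part of these differences in the result was not tested.

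**Figure D3:**
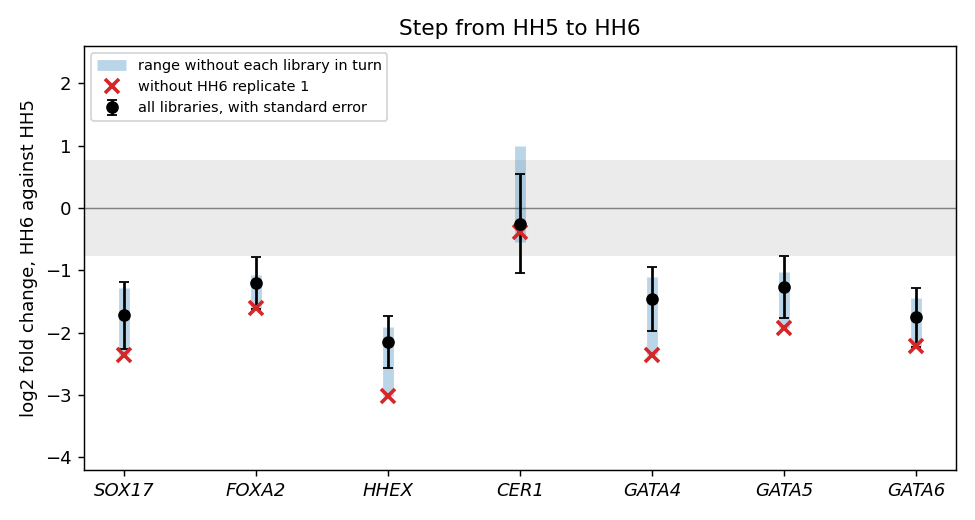
Log2 fold change of HH6 against HH5 for each gene in the fit with 12 stages: points with standard errors use all libraries, pale bars give the range when each library was left out in turn, crosses leave out HH6 replicate 1, and the grey band marks the range of -0.75 to 0.75 within which nothing is called. For all genes but CER1 the crosses lie at the lower end of the bars or beside it, from -3.01 for HHEX to -1.61 for FOXA2.

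In the fit with 6 pooled groups the falls were spread over 4 intervals. From HH5 to HH6 only HHEX was called (log2 fold change -2.15, adjusted p = 0.017; 0.669% of all genes lower). From HH6 to HH7, 4 of 7 fell (0.918% of all genes), with log2 fold changes of -2.12 for SOX17, -2.02 for GATA6, -2.0 for GATA5 and -1.40 for FOXA2 and adjusted p from 0.0041 to 0.045. From HH7 to HH8, 4 of 7 fell (2.83% of all genes), with log2 fold changes of -2.71 for GATA5, -2.0 for FOXA2, -1.83 for SOX17 and -1.04 for GATA6 and adjusted p from 7.6e-06 to 0.030. From HH8 to HH9 CER1 fell, with a log2 fold change of -2.41 (adjusted p = 0.013; 3.57% of all genes). From HH9 to HH10 none was called (0.135% of all genes), and none had an unadjusted p under 0.05 in edgeR.

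Here too the same library mattered. Without HH6 replicate 1, HHEX, GATA4 and GATA6 were called from HH5 to HH6 (1.49% of all genes), and none of the 7 from HH6 to HH7 (0.103% of all genes), so that the calls in that interval rest on it. The call of GATA5 there was lost without HH6 replicate 2 as well. The HHEX call was lost without HH5 replicate 1 or without HH6 replicate 2, 3 or 4, with adjusted p up to 0.12. The call of FOXA2 from HH6 to HH7 was lost in 18 of the 45 fits that left out 1 library, with log2 fold changes of -1.53 to -0.99 over the 45. That of GATA6 from HH7 to HH8 was lost in 7 (-1.22 to -0.92), and that of CER1 from HH8 to HH9 (-2.84 to -1.53) without 4ss replicate 4, where its adjusted p was 0.12.

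Single libraries were compared by their deviations from the stage mean in log2 CPM. Over the 21 pairs of genes, 16 correlations were above 0, with a median Pearson r of 0.215 and a range of -0.252 to 0.489 (n = 45). The highest was that of SOX17 with FOXA2, at r = 0.489 (permutation within stages, two-sided p = 0.0065, adjusted p = 0.12 over 21 pairs) and Spearman's ρ = 0.431 (permutation p = 0.0098, adjusted p = 0.20). It was 0.353 without the 2 libraries farthest from the median of SOX17, which were HH6 replicate 1 and 8ss replicate 1. FOXA2 with HHEX followed at r = 0.424 and ρ = 0.330 (permutation p = 0.012 and 0.054, adjusted p = 0.12 and 0.20), and the r was 0.378 without the 2 libraries farthest in FOXA2. No pair passed the threshold after adjustment, by either measure.

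The same correlations were taken within early and within late stages. Within HH5 to 3ss (n = 20) the median r was 0.41, 18 of 21 pairs were above 0 and 1 pair was called, SOX17 with GATA5 at r = 0.740 (permutation, adjusted p = 0.048). Its ρ was 0.629, and by ρ no pair was called. This range was not tested without HH6 replicate 1. Within 4ss to 10ss (n = 25), a range added after the data had been seen, the median r was -0.007, 10 pairs were above 0 and none was called. The difference between these ranges was not tested, and the late levels are close to the counting floor for SOX17 and CER1. Counts of GATA4, GATA6 and FOXA2 were also low in single late libraries, down to 1, 4 and 2 reads. Without HH6 replicate 1 the median over all stages was 0.09 and 14 pairs were above 0. CER1 had r of -0.252 to 0.116 with the 6 other genes over all libraries. Within the 9 libraries numbered 4 its r was -0.018 to 0.683, with 0.683 for SOX17, 0.612 for GATA6 and 0.515 for FOXA2, and within the other 36 it was -0.328 to 0.156. The median r over all pairs was 0.157 within the 9 and 0.238 within the 36, with 17 of 21 pairs above 0 in each.

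**Figure D4:**
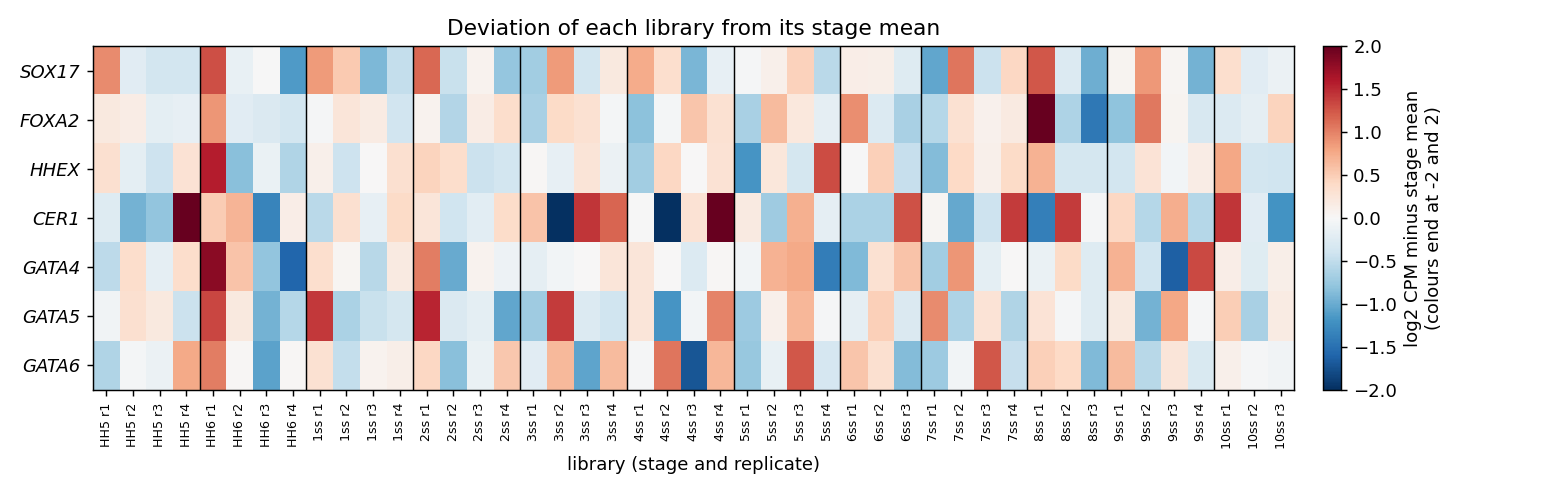
Deviation of each library (columns, ordered by stage and replicate) from its stage mean, in log2 CPM, for the 7 genes (rows); colours end at -2 and 2. The column of HH6 replicate 1 is red in all 7 genes and so is that of 2ss replicate 1, while HH6 replicate 3, 8ss replicate 3 and 10ss replicate 2 have no gene above the stage mean.

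Read library by library, HH6 replicate 1 and 2ss replicate 1 were above the stage mean in 7 of 7 genes, with median deviations of 1.29 and 0.45. The libraries HH6 replicate 3, 8ss replicate 3 and 10ss replicate 2 were above it in 0 of 7, with median deviations of -0.79, -0.35 and -0.23. In 2ss replicate 1 the mesoderm list summed to 342 CPM against 161 to 177 in the other 2ss libraries, and the list of other GATA factors and non-neural ectoderm to 536 against 278 to 325 CPM, while the endoderm list was at 294 CPM within a range of 241 to 345. GATA3 accounted for most of the 536 CPM, at 439 CPM against 207 to 232, and GATA2 was at 30.5 CPM against 13.9 to 19. TFAP2A, DLX5, DLX6 and TFAP2C lay within the range of the other 2ss libraries. The part of these tissues in the levels was not tested.

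The other endoderm genes, from a list of 24 of which 18 were measured, moved with the 7 in part. At HH10 against HH5, 11 of 18 were called lower (9.8% of all genes) and 1 higher (7.2% of all genes), with a median log2 fold change of -2.93. Among those that fell most were HNF4A (-4.58, SE 0.929), a nuclear receptor of gut and liver, NKX2-1 (-4.15, SE 1.12), a factor of the foregut and also of the ventral forebrain, and APOA1 (-4.14, SE 0.520), an apolipoprotein of yolk sac and liver. The riser was SOX18 (1.85, SE 0.508), an SRY-box factor of vessels. At HH6 against HH5 only APOA1 was called (-1.67, SE 0.414, adjusted p = 0.023), where 0.669% of all genes were called lower. The list median was -1.27. This call and this median are not given without HH6 replicate 1. The summed level of the list was 179 to 293 CPM at 4ss and 767 to 1440 CPM at 8ss. CXCR4, the chemokine receptor in that list, had means of 69.8 CPM at 4ss and 666 CPM at 8ss. It accounted for most of the sum in 8ss replicates 1 and 3, at 638 and 678 CPM of 767 and 775 CPM. In 8ss replicate 2, with the sum of 1440 CPM, it was at 683 CPM. TTR was at 502 CPM there (others 25.9 and 3.71) and APOA1 at 185 CPM (others 37.1 and 28.6).

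Genes of other tissues fell over the same stages. At HH10 against HH5, where 9.8% of all genes were called lower, so were 11 of 15 mesoderm genes and 6 of 9 heart genes. Of the midline genes 4 of 7 were called lower and 1, NOG, higher. Of the genes of other GATA factors and non-neural ectoderm 5 of 7 were called lower. The 4 midline genes were CHRD, NTN1, TBXT and FOXJ1. Those of the last list were GRHL3, DLX5 and, with the largest falls, GATA2 (-4.46, SE 0.488), GATA3 (-3.60, SE 0.539) and TFAP2C (-1.78, SE 0.347). Of the neural crest genes 6 of 8 were called higher, where 7.2% of all genes were, PAX7 (3.19, SE 0.378), TFAP2B and SOX10 with the largest changes, and of the blood and vessel genes 3 of 10, which were ERG, CDH5 and LMO2. At HH6 against HH5, where 0.669% of all genes were called lower and 0.626% higher, no mesoderm, heart or midline gene was called. None of the 7 other GATA and non-neural ectoderm genes was called either. Of the blood and vessel genes 1 was called lower, and 2 neural crest genes and 1 neural plate gene were called higher. These counts at HH6 are not given without HH6 replicate 1.

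The genes most like each of the 7 were named by the Pearson r of log2 CPM over the 45 libraries, among 9687 genes with a symbol and a mean of at least 1 CPM. The libraries share stages, so such values follow from any common trend over time and are given as a description. They were KRT18 (0.908), TNNT2 and ATP2B1 for SOX17, TNNT2 (0.862), KRT7 and LSP1P1 for GATA4, and CGN (0.927), TNNT2 and ATP2B1 for GATA5. For GATA6 they were APOA1 (0.921), LSP1P1 and KRT18, and for FOXA2 ATP2B1 (0.918), GATA3 and CGN. HHEX had JCAD (0.837), IGFBP2 and SMAD6, and CER1 had SLC39A8 (0.824), ARHGAP8 and ST14. KRT18 and KRT7 are keratins of simple epithelia, CGN is a tight junction protein, and TNNT2 is the troponin T of heart muscle.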

How the data were processed

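Tissue of the midbrain neural crest domain was sequenced as bulk RNA with a library kit that keeps no strand. The authors aligned the reads with STAR to GRCg6a (per the submitters' processing notes) and deposited whole read counts per gene without normalization, for all genes and for those that exceed 5 reads in any library, and a scaled signal table whose values equal CPM after TMM scaling of those counts. The counts in both tables were the same for all 18525 filtered genes. Tests used the deposited counts with edgeR 4.0.16 in R 4.3.3 (quasi-likelihood, Benjamini-Hochberg), in 2 fits over all 45 libraries, with 6 pooled groups and with 12 stages. DESeq2 1.42.0, other scalings and filters, blocks and fits without each library were alternatives. Groups and replicate numbers came from the sample titles. Replicates were separate pools, but whether they were collected separately is not stated, so p-values measure the spread between these pools. With 6 pooled groups that spread also includes differences between the stages joined in HH7, HH8 and HH9. No replicate pair agreed within sampling noise.

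Log2 CPM used a prior count of 2, and correlations 100000 permutations within stages. The tests were checked on simulated data. For the fits, the simulated counts had the same spread in every gene and changes only in genes with a mean above 1 CPM. That check does not show how the fits behave for genes with a larger spread or a lower level. The members and gene lists were chosen with earlier results of these data known. The text names all 7 members, the 3 genes most like each, and for HH6 or HH10 against HH5 up to 3 called genes of a list with the largest change. TTR, CXCR4, SHH, NKX2-1, NOG, FOXJ1, GRHL3, DLX5 and the heart and endoderm genes in HH6 replicate 1 are given as well, chosen after their values were seen. Listed symbols without a match were FOXA3, NODAL, LEFTY2, AFP, SOX7, PDX1, T, MESP2, VMHC1, GATA1, SNAI2 and GCG. In a RefSeq gene table of another build (GRCg7b), GATA4, FOXA2 and CER1 each overlap another gene, LOC100858393, LOC112532067 and LOC112530522, and reads of overlapping genes cannot be told apart without strand. No sequences or coordinates are given.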

Additional observations from a re-analysis of the deposited data

Results flagged for a closer look

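In 7 of 63 groups of 4 libraries (11.1%), 1 library stood apart by Dixon's test on CPM values. Its rate of about 1 in 20 by chance holds for normally distributed values, which CPM values need not be. The share found was therefore not set against it. SOX17 was at 24.8 CPM in HH5 replicate 1 and 9.94 to 10.9 CPM in the other HH5 libraries. GATA5 was at 99.6 CPM in 1ss replicate 1 (others 23.9 to 29.2), at 45.9 CPM in 2ss replicate 1 (others 7.71 to 13.8) and at 14.5 CPM in 3ss replicate 2 (others 3.28 to 4.51). In HH6 replicate 1, FOXA2 was at 21.4 CPM (others 8.91 to 9.92) and HHEX at 19.8 CPM (others 3.64 to 5.99). CER1 was at 6.89 CPM in HH5 replicate 4 (others 0.828 to 1.37). All 7 are on the high side of their stage, where the CPM scale spreads values more than the log2 scale does. The test was not run on log2 CPM.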

How the results depend on the processing

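No called value changed sign. Over the single genes in 6 comparisons and all alternatives, 56 values lost their call and 24 gained one. With only the libraries numbered 1 to 3, 0 genes were called from HH5 to HH6, 2 from HH6 to HH7 and 0 from HH8 to HH9 in the 6 groups, and 1 at the first step in the 12 stages. With only the compared libraries 3 were called from HH5 to HH6 in edgeR. From HH6 to HH7, SOX17 (adjusted p = 0.051) and GATA5 (0.09) then lost their calls and HHEX (0.043) was called. From HH7 to HH8 GATA6 lost its call (0.055). With DESeq2's Wald test 2 were called from HH5 to HH6 in the 6 groups, GATA6 (adjusted p = 0.024) besides HHEX. From HH6 to HH7 it also called GATA4 and HHEX (adjusted p = 0.048 each). In the 12 stages it also called SOX17 at the first step (adjusted p = 0.03), and 1 fall and 1 rise over the later steps. The share of all genes called was not counted in these alternatives or in the fits without single libraries, except HH6 replicate 1. Their counts can therefore not be set against all genes. Within HH5 to 3ss 1 pair of genes was called by Pearson r and none by ρ. At 1 CPM or more, 185 values of genes in libraries were detected, against 280 with more than 3 reads. Without each library in turn, the calls were 0 to 3 from HH5 to HH6, 0 to 4 from HH6 to HH7, 3 to 5 from HH7 to HH8, 0 to 2 from HH8 to HH9, 0 from HH9 to HH10, 6 to 7 for HH10 against HH5, 1 to 6 at the first step, 64 to 72 (68 with all libraries) over genes and stages lower than HH5, 7 for any change, 0 for rises or later steps, and 0 to 1 for pairs. Whether equal replicate numbers pair libraries was checked: over 234 pairs of libraries from different stages the median correlation of deviations was 0.042, the lowest -0.322, and between libraries numbered 4 the median was 0.34, the lowest -0.076. With the title number as a replicate block SOX17 was also called at the first step (adjusted p = 0.013) and CER1 was lost at HH10 (adjusted p = 0.055), and with the description code as a replicate block FOXA2 was lost from HH6 to HH7 (adjusted p = 0.051). With a term for libraries numbered 4 CER1 was lost at HH10 (adjusted p = 0.053) and SOX17 called at the first step (adjusted p = 0.026); the cause was not tested. Depth limits SOX17 from 3ss on (3 to 9 reads at 3ss, 1 to 4 at 5ss) and CER1 from 5ss on (3 to 10 reads at 5ss). Single late stages of other genes are limited too, with 3 to 8 reads of FOXA2 at 7ss and 1 to 23 of GATA4 at 9ss.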

Other observations

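Some late libraries with high FOXA2 also held RNA of the ventral genes SHH and NKX2-1, or of NKX2-1 alone, and another did not. These genes were looked at after the values of FOXA2 had been seen. In 6ss replicate 1 FOXA2 was at 2.54 CPM, SHH at 0.904 CPM and NKX2-1 at 7.18 CPM, while the other 6ss libraries had FOXA2 at 1.05 and 0.789 CPM, SHH at 0 and 0.0607 CPM and NKX2-1 at 0.804 and 0.182 CPM. In 8ss replicate 1 FOXA2 was at 1.91 CPM, SHH at 1.26 CPM and NKX2-1 at 7.95 CPM, and SHH was at 0 in the other 8ss libraries. In 10ss replicate 3 FOXA2 was at 1.14 CPM and NKX2-1 at 10.5 CPM, against 0.279 and 0.46 CPM of NKX2-1 in the other 10ss libraries. SHH was at 0.104 CPM there, under the 0.155 CPM of 3 reads in that library. In 9ss replicate 2, with FOXA2 at 1.81 CPM, SHH was at 0 and NKX2-1 at 0.0738 CPM.

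TTR, the carrier of thyroid hormone made by yolk sac endoderm and later by liver and choroid plexus, was at 83.3 to 319 CPM at HH5 and at 83.1 CPM in HH6 replicate 1, against 1.04 to 5.79 CPM in the other HH6 libraries. At 8ss it was at 502 CPM in replicate 2, against 25.9 and 3.71 CPM, while in that library SOX17 had 1 read and FOXA2 was at 0.227 CPM. APOA1 was also high there, at 185 CPM (others 37.1 and 28.6), as were APOB at 9.07 CPM (0.372 and 0) and HNF4A at 2.89 CPM (0.604 and 0.183). Other genes of the endoderm list, among them FOXA1, LHX1, NKX2-1 and PRDM1, were not highest in that library.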
